A study of Mus musculus with 23 samples.

Results

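RANK ligand (Tnfsf11), its signalling receptor RANK (Tnfrsf11a) and its soluble decoy osteoprotegerin (Tnfrsf11b) were followed as a set of 3 genes in mouse ovary RNA. They were found by gene symbol among the 24716 genes of the deposited count table, each matched 1 entry, and all 3 passed the filter on low counts that left 20189 genes for testing. The 23 libraries were made from polyA RNA of whole ovaries of wild-type females of 3 inbred strains. NZO/HlLtJ is an obese, diabetes-prone strain of polygenic origin, CAST/EiJ is a wild-derived strain, and C57BL/6J is the common laboratory strain. From 6 weeks of age the mice ate a diet of 44% fat that was also high in sugar, or a control diet of 10% fat, both with fiber, and tissue was taken at 15 weeks. The groups were NZO/HlLtJ, CAST/EiJ and C57BL/6J on 44% fat with 4 libraries each, NZO/HlLtJ and CAST/EiJ on 10% fat with 4 each, and C57BL/6J on 10% fat with 3. Fat and sugar moved together, so they cannot be told apart, and no label gives the stage of the estrous cycle or says that each library came from a separate mouse. The p-values therefore rest on differences among libraries, which may be technical.

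RANK ligand is a cytokine of the tumour necrosis factor (TNF) family, made as a membrane protein and also shed, that binds RANK on the receiving cell. RANK recruits TRAF adaptor proteins and switches on NF-kappaB and MAP kinases. Osteoprotegerin is secreted, binds the ligand and keeps it from RANK, so the balance of ligand to decoy sets the strength of the signal. The trio is best known for driving osteoclast formation in bone, and in the mammary gland progesterone and prolactin raise RANK ligand to expand milk-forming epithelium.

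Library totals ranged from 31.94 to 45.85 M expected counts (mean 39.02 ± 4.126 M, SD, n = 23). Granulosa cell markers summed to between 2410 and 7430 CPM (expected counts scaled to library size) and oocyte markers to between 84.3 and 408 CPM, and every gene of both lists was above 0 in every library. Oviduct epithelium markers, of the tube beside the ovary, summed to 5190 CPM in CAST/EiJ 10% fat replicate 2 and to 247 CPM in C57BL/6J 44% fat replicate 1. White adipocyte markers summed to 1940 CPM in the first of these. List counts that changed without this pair of libraries, an alternative chosen after seeing the data, are given with that value.

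Ligand and decoy differed between the strains in opposite directions in NZO/HlLtJ, and the receptor did not pass the test in any strain comparison. Averaged over diets, Tnfsf11 was 14-fold higher in NZO/HlLtJ than in C57BL/6J and 5.21-fold higher than in CAST/EiJ, while Tnfrsf11b was 2.49-fold lower than in C57BL/6J and 4.69-fold lower than in CAST/EiJ. CAST/EiJ had more of both Tnfsf11 (2.68-fold) and Tnfrsf11b (1.88-fold) than C57BL/6J, also averaged over diets. Within a diet, Tnfsf11 passed on neither and Tnfrsf11b on 44% fat only. None of the 3 genes passed the test for diet in any strain. The genes were selected on results of these same data, and no source says which comparison picked them. Their levels and differences are therefore descriptions, and their p-values, adjusted over all genes tested, say only where the 3 genes stand among all genes.

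Tnfsf11 (ENSMUSG00000022015) lies on the minus strand of chromosome 14 at 78277445 to 78308043 (GRCm38). The 250 bases before its start (chr14:78308044-78308293, minus strand, GRCm38.p6, from RefSeq) are shown because the gene carries the strain difference. The sequence is the C57BL/6J reference and not the other strains' own. Capitals mark ATTGG, the opposite-strand reading of CCAAT, and TTATAA, in which TATAA on the gene's strand overlaps TTATA, its opposite-strand reading.
Tnfsf11: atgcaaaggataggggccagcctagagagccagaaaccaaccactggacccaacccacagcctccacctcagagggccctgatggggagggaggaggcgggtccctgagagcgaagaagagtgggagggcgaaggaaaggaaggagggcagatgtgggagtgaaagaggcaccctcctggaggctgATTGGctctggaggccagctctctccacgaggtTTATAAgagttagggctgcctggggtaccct
TATAA began 30 bases before the start and ATTGG 64 bases before it. On either strand, TATAA occurred in 22.8% and CCAAT in 33.8% of 32851 RefSeq promoters over the same length. The window held 60.4% G and C, against a median of 52.4% over all promoters, and 4 CpG, against a median of 6.

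The receptor and the decoy were read from other chromosomes. Tnfrsf11a (ENSMUSG00000026321) lies on the plus strand of chromosome 1 at 105780718 to 105847981, and Tnfrsf11b (ENSMUSG00000063727) on the minus strand of chromosome 15 at 54250619 to 54278484. The receptor's 250 bases before the RefSeq start (chr1:105780473-105780722, plus strand) are shown for contrast with the ligand's, with GGGCGG, the GC box, in capitals.
Tnfrsf11a: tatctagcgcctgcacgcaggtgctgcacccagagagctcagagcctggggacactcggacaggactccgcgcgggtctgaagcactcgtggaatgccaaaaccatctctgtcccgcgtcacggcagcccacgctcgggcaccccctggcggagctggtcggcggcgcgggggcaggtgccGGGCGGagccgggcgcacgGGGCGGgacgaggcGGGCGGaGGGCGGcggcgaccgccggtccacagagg
It held 4 copies of GGGCGG, at 69, 50, 36 and 29 bases before the start, a motif found on either strand in 32.7% of promoters. G and C made up 73.6% of the bases, and there were 31 CpG. Neither TATAA nor CCAAT was found in this window. A match of letters describes the reference sequence and shows no bound factor.

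Tnfsf11, the ligand, was the most variable of the 3 genes, with a 131-fold range and a coefficient of variation of 148% over the 23 libraries. In NZO/HlLtJ it was at 3.21, 7.33, 7.11 and 4.61 CPM on 44% fat and at 22.7, 6.18, 1.24 and 15.9 CPM on 10% fat. In CAST/EiJ it was at 1.68, 1.98, 0.954 and 1.87 CPM on 44% fat and at 1.71, 0.652, 2.36 and 1.05 CPM on 10% fat. In C57BL/6J it was at 0.515, 0.789, 0.609 and 1.03 CPM on 44% fat and at 0.174, 0.859 and 0.281 CPM on 10% fat. All 8 NZO/HlLtJ libraries lay above all 7 C57BL/6J libraries, and the same held for 3.85% of all genes tested. All NZO/HlLtJ libraries except 10% fat replicate 3, at 1.24 CPM, also lay above all CAST/EiJ libraries. That library and 10% fat replicate 1 were 18.4-fold apart, the full range within the strain. Behind these levels were 7 to 989 expected counts per library, so the lowest C57BL/6J values rest on few reads.

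**Figure D1:**
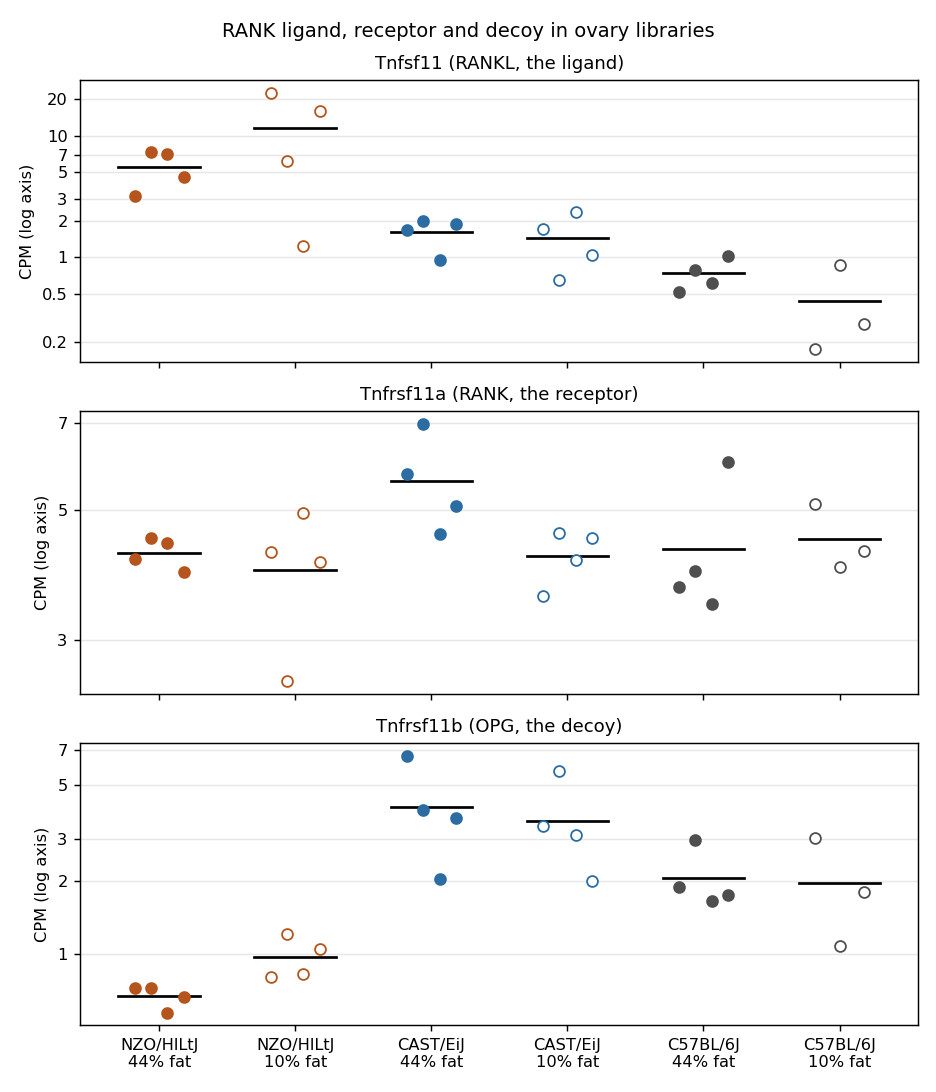
Level of each gene in every library, in CPM on a log axis, by strain and diet. Filled points are libraries on 44% fat, open points libraries on 10% fat, and black lines group means. Tnfsf11 is high and Tnfrsf11b low in NZO/HlLtJ, while Tnfrsf11a lies between 2.56 and 6.98 CPM in every library.

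The group means of Tnfsf11 ran from 11.5 ± 9.64 CPM in NZO/HlLtJ on 10% fat, through 5.56 ± 1.99 CPM in NZO/HlLtJ on 44% fat, 1.62 ± 0.463 and 1.44 ± 0.75 CPM in CAST/EiJ on 44% and 10% fat, to 0.736 ± 0.227 CPM (SD, n = 4 each) in C57BL/6J on 44% fat and 0.438 ± 0.368 CPM (SD, n = 3) on 10% fat. Of the neighbours in this order, NZO/HlLtJ on 44% fat and CAST/EiJ on 44% fat did not overlap, and the libraries of every other neighbouring pair did.

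In the test over all genes, NZO/HlLtJ against C57BL/6J gave a log2 fold change of 3.8 (SE 0.51) for Tnfsf11, with an edgeR quasi-likelihood adjusted p of 1.6e-05. In this comparison 23.9% of all genes passed, 11.6% higher and 12.3% lower in NZO/HlLtJ. NZO/HlLtJ against CAST/EiJ gave 2.38 (SE 0.44, edgeR adjusted p = 0.000171), where 48.1% of genes passed, 23.4% higher and 24.8% lower in NZO/HlLtJ. Both NZO/HlLtJ differences passed on each diet. On 44% fat Tnfsf11 was 7.55-fold higher in NZO/HlLtJ than in C57BL/6J (edgeR adjusted p = 0.00505) and on 10% fat 25.8-fold higher (0.000532), where 12.6% and 10% of genes passed. CAST/EiJ against C57BL/6J gave 1.42 (SE 0.48, edgeR adjusted p = 0.0206), where 46.8% of genes passed, 23.2% higher and 23.6% lower in CAST/EiJ. Within a diet it did not pass, at 2.2-fold higher on 44% fat (edgeR adjusted p = 0.193) and 3.26-fold higher on 10% fat (0.0718). There 29.5% and 38% of genes passed. The call averaged over diets was lost without C57BL/6J 10% fat replicate 1 (1.23, edgeR adjusted p = 0.0627). It was lost also without replicate 3 of the same group (1.31, 0.0543). These were the libraries with the lowest Tnfsf11.

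Tnfrsf11b, the decoy, was lowest in NZO/HlLtJ. There it was at 0.727, 0.721, 0.573 and 0.665 CPM on 44% fat and at 0.804, 1.21, 0.825 and 1.05 CPM on 10% fat. In CAST/EiJ it was at 6.62, 3.96, 2.05 and 3.65 CPM on 44% fat and at 3.38, 5.7, 3.1 and 2 CPM on 10% fat. In C57BL/6J it was at 1.89, 2.96, 1.66 and 1.76 CPM on 44% fat and at 3.03, 1.08 and 1.81 CPM on 10% fat. All NZO/HlLtJ libraries lay below all CAST/EiJ libraries, as was so for 8.13% of all genes tested. Against C57BL/6J a single pair overlapped, NZO/HlLtJ 10% fat replicate 2 at 1.21 CPM and C57BL/6J 10% fat replicate 2 at 1.08 CPM.

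The log2 fold change of Tnfrsf11b was -1.32 (SE 0.27, edgeR adjusted p = 0.00101) in NZO/HlLtJ against C57BL/6J and -2.23 (SE 0.26, edgeR adjusted p = 6.66e-07) against CAST/EiJ. CAST/EiJ against C57BL/6J gave 0.91 (SE 0.26, edgeR adjusted p = 0.00695). Diet by diet, NZO/HlLtJ was 3.07-fold lower than C57BL/6J on 44% fat (edgeR adjusted p = 0.00586) and 2.03-fold lower on 10% fat, which did not pass (0.0994). Likewise CAST/EiJ was 1.97-fold higher than C57BL/6J on 44% fat (edgeR adjusted p = 0.0405) and 1.8-fold higher on 10% fat (0.0887), where 29.5% and 38% of genes passed. Group means ran from 4.07 ± 1.89 CPM in CAST/EiJ on 44% fat and 3.55 ± 1.56 CPM on 10% fat, through 2.07 ± 0.602 CPM (SD, n = 4 each) in C57BL/6J on 44% fat and 1.97 ± 0.983 CPM (SD, n = 3) on 10% fat, to those of NZO/HlLtJ. The libraries of neighbouring groups overlapped, except for NZO/HlLtJ on 44% and on 10% fat.

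Smooth muscle and pericyte markers, a list of 8 genes of vessel walls and stroma, were lower with the decoy in NZO/HlLtJ against C57BL/6J, and overlapped in both comparisons with CAST/EiJ. They summed to between 769 and 1000 CPM in NZO/HlLtJ, to between 968 and 2620 CPM in CAST/EiJ and to between 1320 and 2360 CPM in C57BL/6J, and every one of the 8 was above 0 in every library. Rgs5, a pericyte gene of the list, had another order than the decoy, at 89.6 ± 8.84 CPM in NZO/HlLtJ and 42.3 ± 6.7 CPM in CAST/EiJ (SD, n = 8 each), and 148 ± 44.8 CPM in C57BL/6J (SD, n = 7). Of 14 marker lists, 2 separated all NZO/HlLtJ libraries from all C57BL/6J libraries, this one and the luteal list of 9 genes. The luteal list summed to 7830 to 11200 CPM in NZO/HlLtJ and 11700 to 17300 CPM in C57BL/6J. Its genes did not all move together. Cyp11a1 averaged 1440 CPM in NZO/HlLtJ and 5250 CPM in C57BL/6J, and Sfrp4 276 and 885 CPM. Hsd3b1, at 5900 and 5230 CPM, and Prlr, at 739 and 730 CPM, were not lower. Another 2 lists separated NZO/HlLtJ from CAST/EiJ. Markers of T, NK and B cells, classes that include makers of RANK ligand, summed to between 9.68 and 14.2 CPM in NZO/HlLtJ, between 3.67 and 9.18 CPM in CAST/EiJ and between 6.34 and 13.4 CPM in C57BL/6J, over 11 listed genes, of which Ncr1 and Nkg7 were at 0 in some libraries. Oviduct markers summed to between 9.81 and 21.5 CPM in NZO/HlLtJ and between 39.4 and 5190 CPM in CAST/EiJ. Of this list Dnah5 was at 0.174 to 0.779 CPM in NZO/HlLtJ and 14.7 to 95.5 CPM in CAST/EiJ. Pax8 was at 0.222 to 0.981 and 1.08 to 35.4 CPM. The other genes of the list overlapped between these strains, and Fam183b averaged 0.618 CPM in NZO/HlLtJ and 0.463 CPM in CAST/EiJ. The part of these cell types in the strain differences was not tested, and in bulk RNA fewer cells of a type and less RNA per cell cannot be told apart.

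Tnfrsf11a, the receptor, varied little, with a 2.72-fold range and a coefficient of variation of 20.8% over all libraries. It was at 4.12, 4.47, 4.38 and 3.92 CPM in NZO/HlLtJ on 44% fat and at 4.23, 2.56, 4.93 and 4.08 CPM on 10% fat. In CAST/EiJ it was at 5.74, 6.98, 4.54 and 5.07 CPM on 44% fat and at 3.57, 4.56, 4.1 and 4.47 CPM on 10% fat. In C57BL/6J it was at 3.69, 3.94, 3.46 and 6.03 CPM on 44% fat and at 5.11, 4 and 4.25 CPM on 10% fat. The libraries of neighbouring groups overlapped throughout the order of the means, whose ends were 5.58 ± 1.05 CPM in CAST/EiJ on 44% fat and 3.95 ± 0.996 CPM in NZO/HlLtJ on 10% fat (SD, n = 4 each). Log2 fold changes between strains were -0.1 (SE 0.15) for NZO/HlLtJ against C57BL/6J, -0.24 (SE 0.14) for NZO/HlLtJ against CAST/EiJ and 0.14 (SE 0.15) for CAST/EiJ against C57BL/6J, with edgeR adjusted p of 0.683, 0.168 and 0.441.

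**Figure D2:**
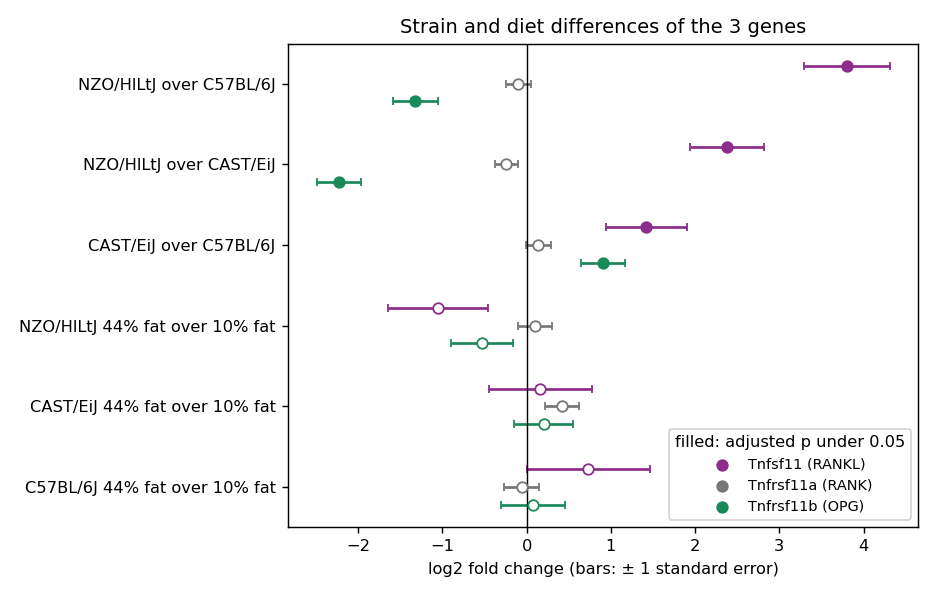
Log2 fold changes of the 3 genes for the strain comparisons averaged over diets and for 44% over 10% fat in each strain. Bars are ± 1 standard error, and filled points have an edgeR adjusted p under 0.05. The ligand lies at 3.8 and 2.38 and the decoy at -1.32 and -2.23 in the comparisons with NZO/HlLtJ on top, and no diet comparison has a filled point.

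No diet difference of the 3 genes passed the test, and the libraries of both diets overlapped in each case but that of Tnfrsf11b in NZO/HlLtJ. In NZO/HlLtJ the log2 fold change of 44% over 10% fat was -1.05 (SE 0.59) for Tnfsf11, 0.1 (SE 0.2) for Tnfrsf11a and -0.53 (SE 0.37) for Tnfrsf11b, with an edgeR adjusted p of 1 for each. The 4 NZO/HlLtJ libraries on 44% fat all lay below the 4 on 10% fat for Tnfrsf11b, at 0.672 ± 0.0715 CPM against 0.972 ± 0.195 CPM (SD), and 1.64% of all genes tested were separated in the same way. For Tnfsf11 the diets overlapped, and the spread on 10% fat was 9.64 CPM, against 1.99 CPM on 44% fat. In NZO/HlLtJ edgeR passed 0% of genes (710 had an unadjusted p below 0.05) and DESeq2 passed 4.

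In CAST/EiJ the receptor had the smallest p of the trio for diet, at 5.58 ± 1.05 CPM on 44% fat and 4.17 ± 0.453 CPM on 10% fat (SD, n = 4 each). Its log2 fold change was 0.42 (SE 0.2), with an unadjusted p of 0.0474 and an edgeR adjusted p of 0.365, and the diets overlapped. Tnfsf11 and Tnfrsf11b were at 0.16 (SE 0.61) and 0.2 (SE 0.35), with edgeR adjusted p of 0.943 and 0.861. In this comparison 0.624% of all genes passed. In C57BL/6J the log2 fold changes were 0.73 (SE 0.73) for Tnfsf11, -0.06 (SE 0.21) for Tnfrsf11a and 0.07 (SE 0.38) for Tnfrsf11b, with edgeR adjusted p of 0.798, 0.964 and 0.976. Here edgeR passed 0% of genes (1783 had an unadjusted p below 0.05) and DESeq2 passed 54. Leaving out C57BL/6J 10% fat replicate 2 moved the value of Tnfsf11 to 1.69, still short of the threshold (edgeR adjusted p = 0.361).

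No difference between strains in the diet effect passed for any of the 3 genes. For Tnfsf11 the diet effect of NZO/HlLtJ minus that of C57BL/6J was -1.77 (SE 0.94) on the log2 scale, with an edgeR adjusted p of 1. Of all genes 0% passed there in edgeR (791 had an unadjusted p below 0.05), and 5 passed in DESeq2. NZO/HlLtJ minus CAST/EiJ was -1.21 (SE 0.85, edgeR adjusted p = 0.613), where 0.0149% of genes passed, and CAST/EiJ minus C57BL/6J was -0.56 (SE 0.95, edgeR adjusted p = 0.815), where 0.614% passed. Without C57BL/6J 10% fat replicate 2, the first and last of these values were -2.74 and -1.53, with edgeR adjusted p of 0.525 and 0.427. For Tnfrsf11b the same differences were -0.6 (SE 0.53), -0.73 (SE 0.51) and 0.13 (SE 0.51), with edgeR adjusted p of 1, 0.607 and 0.928. For Tnfrsf11a they were 0.15 (SE 0.29), -0.32 (SE 0.28) and 0.48 (SE 0.29), with edgeR adjusted p of 1, 0.694 and 0.433.

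Levels of different genes can be set side by side only per length of transcript. Taking the exonic lengths of 2236 bases for Tnfsf11, 5985 for Tnfrsf11a and 2818 for Tnfrsf11b, NZO/HlLtJ had 3.82 ± 3.21 CPM per kb of ligand, 0.683 ± 0.115 of receptor and 0.292 ± 0.0746 of decoy (SD, n = 8). CAST/EiJ had 0.685 ± 0.262 CPM per kb of ligand, 0.815 ± 0.178 of receptor and 1.35 ± 0.578 of decoy (SD, n = 8). C57BL/6J had 0.272 ± 0.139 CPM per kb of ligand, 0.728 ± 0.152 of receptor and 0.719 ± 0.252 of decoy (SD, n = 7). The ligand had the highest mean level of the 3 in NZO/HlLtJ and the lowest in the other strains.

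The log2 ratio of ligand to decoy within a library, per exonic base, is given as a description with no test. It averaged 3.22 ± 0.64 in NZO/HlLtJ on 44% fat and 3.2 ± 1.84 on 10% fat (SD, n = 4 each). In CAST/EiJ it averaged -0.9 ± 0.48 on 44% fat and -0.98 ± 1.17 on 10% fat (SD, n = 4 each). In C57BL/6J it averaged -1.1 ± 0.5 on 44% fat (SD, n = 4) and -1.86 ± 1.75 on 10% fat (SD, n = 3). The ratio was above 0 in 8 of 8 NZO/HlLtJ libraries, from 0.89 to 5.07, in 0 of 8 CAST/EiJ libraries and in 1 of 7 C57BL/6J libraries, at 0.02. The NZO/HlLtJ libraries overlapped those of neither other strain. Both genes were selected on results of these data, so this separation follows in part from their own levels and is no further result. The share of other gene pairs separated in this way was not computed.

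**Figure D3:**
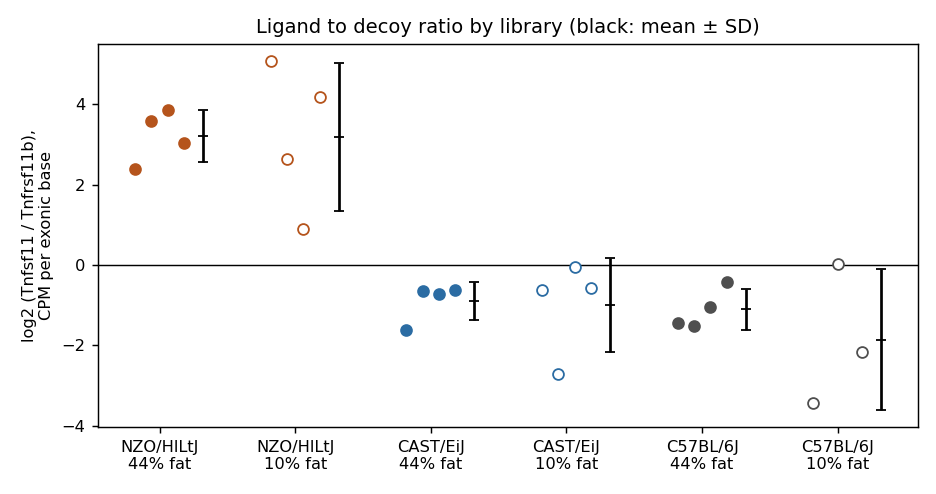
Log2 ratio of Tnfsf11 to Tnfrsf11b per exonic base in each library, by strain and diet. Points are libraries, filled on 44% fat and open on 10% fat, and black bars are mean ± SD. The 8 NZO/HlLtJ libraries lie between 0.89 and 5.07 and the other 15 at or below 0.02.

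Library identifiers fall into 3 series, beginning 76, 82 and 90. The labels do not say whether they are batches. Within series and diet, NZO/HlLtJ was above C57BL/6J for Tnfsf11 in 4 of 4 comparisons (log2 differences of 2.42 to 5.73) and above CAST/EiJ in 4 of 4 (1.5 to 2.76). For Tnfrsf11b the differences were -1.57 to -0.56 against C57BL/6J and -3.1 to -1.72 against CAST/EiJ, below 0 in 4 of 4 each. CAST/EiJ was above C57BL/6J in 5 of 5 for Tnfsf11 (0.36 to 2.97) and in 5 of 5 for Tnfrsf11b (0.16 to 1.99). For Tnfrsf11a NZO/HlLtJ was above C57BL/6J in 2 of 4 (-0.63 to 0.22) and above CAST/EiJ in 0 of 4 (-0.41 to -0.02), and CAST/EiJ was above C57BL/6J in 3 of 5 (-0.51 to 0.63). Each comparison held 1 or 2 libraries a side. Diets were not spread evenly over the series. In NZO/HlLtJ, series 82 held only 10% fat and series 90 only 44% fat libraries, so its diets shared only series 76. C57BL/6J on 10% fat had no library in series 90.

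The genes most like each member were ranked by the root-mean-square difference of log2 CPM, centred on each gene's mean, over the 23 libraries, among 13659 genes. The 5 nearest Tnfsf11 were Dnah2os, Pde6a, Lonrf2, Alms1-ps2 and Dnah2, at 0.7 to 0.93 log2 units, where Tnfsf11 itself spread by 1.66. Lonrf2 averaged 30.2 CPM in NZO/HlLtJ, 17 CPM in CAST/EiJ and 4.01 CPM in C57BL/6J. The 5 nearest Tnfrsf11b were Kcng1, Nkd2, Cyp4b1, Peg10 and Fn1, at 0.46 to 0.52, against its own spread of 0.98. Fn1, which encodes the matrix protein fibronectin, averaged 234 CPM in NZO/HlLtJ, 560 CPM in CAST/EiJ and 365 CPM in C57BL/6J. The 5 nearest Tnfrsf11a were Dnase1l1, Gla, Neat1, Ptprk and Gpx8, at 0.19 to 0.21, against its own spread of 0.28. With the mean absolute difference, 1 of these 5 was again among the nearest, against 4 of 5 for each of the other members.

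Genes within 500 kb of each member, a window chosen after the members' values were seen, were set beside them. Of the 4 tested around Tnfsf11 (Dnajc15, Epsti1, Akap11 and Dgkh), 0 passed in NZO/HlLtJ against C57BL/6J, with log2 fold changes of -0.67 to 0.28 where Tnfsf11 had 3.8. Of the 4 tested around Tnfrsf11b, 0 passed in the same comparison, at -0.95 to -0.05. Against CAST/EiJ 2 of the 4 neighbours of Tnfsf11 were higher and 3 of the 4 neighbours of Tnfrsf11b lower in NZO/HlLtJ. Of all genes 23.4% were higher and 24.8% lower there, and 4 genes are too few to set against these shares. Around Tnfrsf11a, 12 were tested, and 3 were higher and 1 lower in NZO/HlLtJ than in C57BL/6J, beside 11.6% and 12.3% of all genes.

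Among TNF superfamily ligands, the family of Tnfsf11, 14 were tested, and in NZO/HlLtJ against C57BL/6J 6 were higher and 2 lower, with a median log2 fold change of 0.17 beside 0 over all genes. Tnfsf11 itself is counted in, and had the largest value of the 14. Lta, lymphotoxin alpha, was next, 6.65-fold higher in NZO/HlLtJ (edgeR adjusted p = 5.46e-05), at 0.467 ± 0.0758 CPM (SD, n = 8) against 0.0666 ± 0.0371 CPM in C57BL/6J (SD, n = 7). Tnfsf10, the death ligand TRAIL, which osteoprotegerin also binds, was 1.36-fold higher (edgeR adjusted p = 0.0055), and Tnfsf13, a B-cell factor, 1.37-fold lower (0.0022). In NZO/HlLtJ against CAST/EiJ 6 were higher and 4 lower. The strongest of these was Tnfsf15, an endothelial cytokine, at 1.07 ± 0.248 CPM in NZO/HlLtJ and 0.0603 ± 0.0414 CPM in CAST/EiJ (SD, n = 8 each, 17.3-fold, edgeR adjusted p = 1.41e-08). Tnfsf15 ranged from 0 to 0.122 CPM in CAST/EiJ, and Lta from 0.0215 to 0.126 CPM in C57BL/6J. The folds of both genes therefore rest on few reads on the lower side. In CAST/EiJ against C57BL/6J 5 were higher and 4 lower, beside 23.2% and 23.6% of all genes. The shares over all genes in NZO/HlLtJ were 11.6% higher and 12.3% lower against C57BL/6J, and 23.4% and 24.8% against CAST/EiJ.

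**Figure D4:**
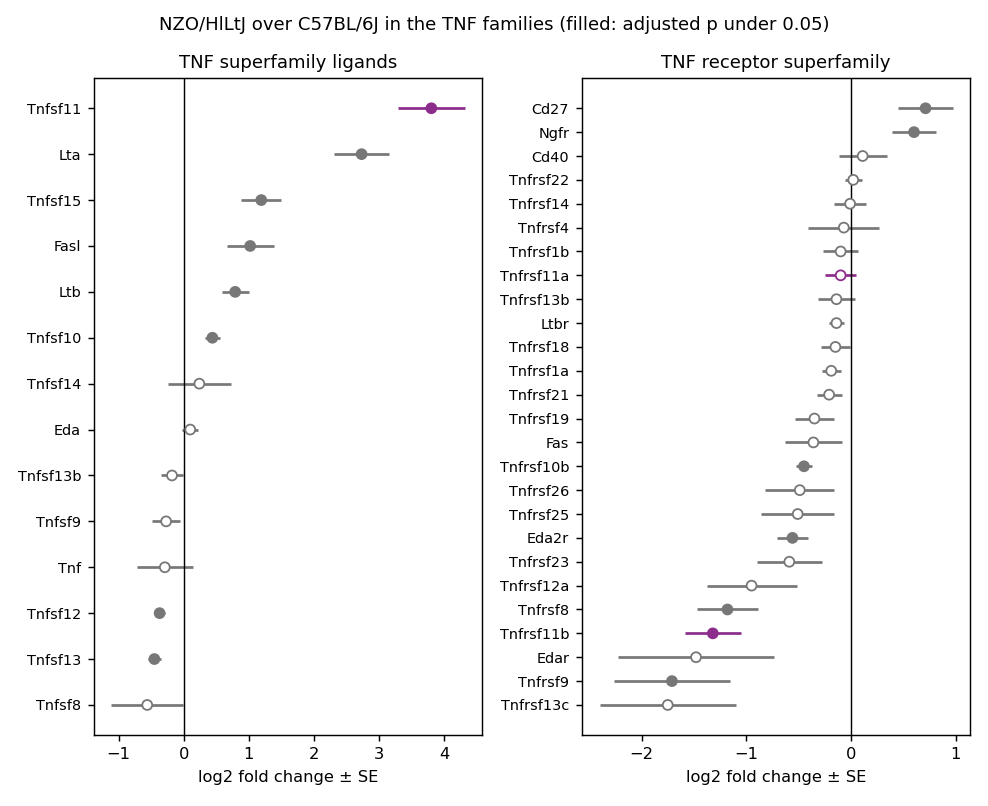
Log2 fold changes of NZO/HlLtJ over C57BL/6J for TNF superfamily ligands and receptors. Bars are ± 1 standard error, filled points have an edgeR adjusted p under 0.05, and the 3 genes of the trio are in purple. Tnfsf11 lies at 3.8, the highest of the 14 ligands, and Tnfrsf11b at -1.32 among 26 receptors.

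Of 26 TNF receptor superfamily genes tested, the family of RANK and osteoprotegerin, 2 were higher and 5 lower in NZO/HlLtJ than in C57BL/6J. Tnfrsf11b was among the lower ones. Over all genes 11.6% were higher and 12.3% lower there. The median log2 fold change of the list was -0.28, beside 0 over all genes. Tnfrsf10b, a receptor of TRAIL, was 1.36-fold lower in NZO/HlLtJ (edgeR adjusted p = 0.000349) and Tnfrsf8, the lymphocyte receptor CD30, 2.27-fold lower (0.00536). Against CAST/EiJ 6 were higher and 6 lower, beside 23.4% and 24.8% of all genes. In CAST/EiJ against C57BL/6J 2 were higher and 7 lower, beside 23.2% and 23.6%. For diet, 0 ligands and 0 receptors passed in edgeR in any strain. Of the receptors, 1, 4 and 3 had an unadjusted p below 0.05 in NZO/HlLtJ, CAST/EiJ and C57BL/6J, and of the ligands 1, 2 and 2. DESeq2 passed 1 receptor, Tnfrsf9, in CAST/EiJ (adjusted p = 0.0152).

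Downstream of RANK, 22 adaptors and NF-kappaB genes were tested. In NZO/HlLtJ against C57BL/6J 2 were higher and 2 lower, namely Traf2 (1.33-fold lower, edgeR adjusted p = 0.00819), Mapk14 (1.15-fold lower, 0.0127), Mapk8 (1.19-fold higher, 0.0153) and Traf6 (1.1-fold higher, 0.038). Traf6 is the adaptor that RANK needs most in osteoclasts, and its call was lost in 13 of 31 alternative fits, with adjusted p up to 0.0823 without NZO/HlLtJ 44% fat replicate 1. That of Mapk8 was lost without C57BL/6J 10% fat replicate 1 (edgeR adjusted p = 0.0546). Against CAST/EiJ 4 were higher and 6 lower in NZO/HlLtJ, beside 23.4% and 24.8% of all genes. Traf1, an NF-kappaB target, was 2.64-fold lower (edgeR adjusted p = 3.4e-09), at 3.91 ± 0.47 CPM in NZO/HlLtJ and 10.3 ± 0.805 CPM in CAST/EiJ (SD, n = 8 each), and C57BL/6J had 4.75 ± 1.08 CPM (SD, n = 7). In CAST/EiJ against C57BL/6J 7 were higher and 4 lower, beside 23.2% and 23.6% of all genes. The shares for NZO/HlLtJ against C57BL/6J were 11.6% higher and 12.3% lower.

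The osteoclast list held 15 tested genes that RANK induces in bone or, for Traf6, signals through. Of these, 1 was higher and 5 were lower in NZO/HlLtJ than in C57BL/6J. Over all genes 11.6% were higher and 12.3% lower there. The median log2 fold change of the list was -0.27, beside 0 over all genes. The higher gene was Traf6, counted also among the adaptors, whose call was lost in 13 of 31 alternative fits. Atp6v0d2, a proton pump subunit, was 2.51-fold lower (edgeR adjusted p = 0.00263), at 6.9 ± 2.75 CPM in NZO/HlLtJ (SD, n = 8) and 17.2 ± 5.36 CPM in C57BL/6J (SD, n = 7). Acp5, tartrate-resistant acid phosphatase, was 1.81-fold lower (edgeR adjusted p = 0.0129), a call lost without C57BL/6J 10% fat replicate 2 (0.0501). The lysosomal chloride exchanger gene Clcn7 was 1.26-fold lower (edgeR adjusted p = 5.67e-05), and Ostm1, its partner, 1.18-fold lower (0.0144, or 0.062 without C57BL/6J 10% fat replicate 1). In CAST/EiJ against C57BL/6J 0 were higher and 6 lower, beside 23.2% and 23.6% of all genes. Among the 6, Nfatc1, the main transcription factor of osteoclasts, was 1.58-fold lower (edgeR adjusted p = 0.00067). In NZO/HlLtJ against CAST/EiJ 1 was higher, Traf6, and 1 lower, Atp6v0d2, beside 23.4% and 24.8% of all genes. For diet in CAST/EiJ 1 passed, Tcirg1, a proton pump subunit, at 74.5 ± 14.8 CPM on 44% fat and 52.8 ± 5.25 CPM on 10% fat (SD, n = 4 each, edgeR adjusted p = 0.0317), a call lost in 7 of 31 alternative fits, with an adjusted p of up to 0.313 when only the groups compared were fitted. Macrophages express many of these genes, and macrophage markers summed to between 228 and 342 CPM in NZO/HlLtJ, between 186 and 562 CPM in CAST/EiJ and between 305 and 507 CPM in C57BL/6J; their part in the result was not tested.

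The ITAM and CSF1 list, of ligands, receptors, adaptors and signalling enzymes that work beside RANK in myeloid cells, held 9 genes. Of these, 0 were higher and 4 lower in NZO/HlLtJ than in C57BL/6J, beside 11.6% and 12.3% of all genes. Fcer1g and Tyrobp, the signalling adaptors of the list, were 2.17-fold and 1.98-fold lower (edgeR adjusted p = 8.82e-06 and 0.000258). Trem2, a receptor that pairs with Tyrobp, was 2.05-fold lower (edgeR adjusted p = 0.00167). Syk, the kinase they recruit, was 1.28-fold lower (0.0233), a call lost without C57BL/6J 10% fat replicate 1 (edgeR adjusted p = 0.0685) or 2 (0.0682). In CAST/EiJ 4 of the 9 passed higher on 44% than on 10% fat, beside 0.525% of all genes, and macrophage markers summed to between 303 and 562 CPM on 44% fat and between 186 and 243 CPM on 10% fat. Tyrobp was at 23.4 ± 11.4 CPM on 44% fat and 10.6 ± 0.907 CPM on 10% fat (SD, n = 4 each, edgeR adjusted p = 0.0283), and Fcer1g, Csf1r and Syk were 2.04-fold, 1.91-fold and 1.61-fold higher (0.0219, 0.0219 and 0.0419). None of the 4 passed without the 2 libraries richest in oviduct RNA (edgeR adjusted p = 0.0583, 0.0501, 0.0639 and 0.0669 for Tyrobp, Fcer1g, Csf1r and Syk), where their log2 fold changes were 1.12, 0.98, 0.89 and 0.71, beside 1.14, 1.03, 0.94 and 0.69 with all libraries. Nor did any pass without CAST/EiJ 44% fat replicate 2, where edgeR adjusted p were, in the same order, 0.0844, 0.0778, 0.0837 and 0.141. With only the groups compared fitted, none passed either (edgeR adjusted p = 0.273, 0.262, 0.244 and 0.324). Tyrobp and Syk missed the threshold on the authors' variance-stabilised values (limma adjusted p = 0.0541 and 0.0623). Syk missed it also with the identifier series as a term (edgeR adjusted p = 0.0738). The calls of Tyrobp, Csf1r and Syk were lost also without CAST/EiJ 10% fat replicate 2 (edgeR adjusted p = 0.0594, 0.0538 and 0.0595), and that of Syk without any of 11 other single libraries.

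A list of 9 other genes held binding partners and sheddases of the trio, and receptors of TRAIL, which osteoprotegerin also binds. In NZO/HlLtJ against C57BL/6J 1 was higher, Tnfsf10. Another 2 were lower, Mmp14 and Tnfrsf10b, a receptor of TRAIL and not a partner of the trio. Mmp14, a protease that can shed the ligand, was 1.27-fold lower (edgeR adjusted p = 0.0459). Its call was lost in 15 of 31 alternative fits, with an adjusted p of up to 0.233, reached without C57BL/6J 10% fat replicate 1. Against CAST/EiJ 1 was higher and 3 lower in NZO/HlLtJ, beside 23.4% and 24.8% of all genes. In CAST/EiJ against C57BL/6J Tnfsf10 was higher (1.68-fold, edgeR adjusted p = 1.27e-05) and 0 were lower. Of all genes 23.2% were higher and 23.6% lower there, and 11.6% and 12.3% in NZO/HlLtJ against C57BL/6J.

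Among 20 regulators of RANK ligand and osteoprotegerin, 0 were higher and 1 lower in NZO/HlLtJ against C57BL/6J, beside 11.6% and 12.3% of all genes. The one was Pth1r, the parathyroid hormone receptor, at 10.2 ± 1.34 CPM in NZO/HlLtJ (SD, n = 8) and 12.9 ± 1.4 CPM in C57BL/6J (SD, n = 7, edgeR adjusted p = 0.0146); without the 2 libraries richest in oviduct RNA 2 were lower, and in DESeq2 3. Pgr, the progesterone receptor, was highest in CAST/EiJ. It was at 13.7 ± 8 CPM in CAST/EiJ (SD, n = 8), against 2.78 ± 1.66 CPM in C57BL/6J (SD, n = 7, edgeR adjusted p = 2.41e-06), and NZO/HlLtJ, with 3.81 ± 0.806 CPM (SD, n = 8), was 3.52-fold below CAST/EiJ (2.26e-05). Prlr, the prolactin receptor, was at 739 ± 160 CPM in NZO/HlLtJ and 476 ± 152 CPM in CAST/EiJ (SD, n = 8 each, edgeR adjusted p = 0.00457), and C57BL/6J had 730 ± 131 CPM. In CAST/EiJ against C57BL/6J 3 regulators were higher and 5 lower, beside 23.2% and 23.6% of all genes. In NZO/HlLtJ against CAST/EiJ 2 were higher and 4 lower, beside 23.4% and 24.8%. Wnt4, a progesterone-induced signal, passed for diet in CAST/EiJ, at 169 ± 89.9 CPM on 44% fat and 56.5 ± 14.7 CPM on 10% fat (SD, n = 4 each, edgeR adjusted p = 0.0454), a call lost in 22 of 31 alternative fits, with an adjusted p of up to 0.271 when only the groups compared were fitted, and of 0.137 without CAST/EiJ 44% fat replicate 3.

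Without the 2 libraries richest in oviduct RNA, counts of several lists moved. In NZO/HlLtJ against C57BL/6J the higher adaptors were 1 in place of 2 and the higher genes of the osteoclast list 0 in place of 1. The higher TNF receptors were 1 in place of 2, and the lower genes of the binding partner list 1 in place of 2. In NZO/HlLtJ against CAST/EiJ the osteoclast genes were 2 higher and 2 lower in place of 1 each, the higher genes of the ITAM and CSF1 list 0 in place of 1, and the higher regulators 5 in place of 2. For diet in CAST/EiJ the osteoclast gene and the regulator that had passed, Tcirg1 and Wnt4, did not (edgeR adjusted p = 0.0523 and 0.11). Their log2 fold changes were 0.5 and 1.47 without the pair, beside 0.5 and 1.58 with all libraries.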

How the data were processed

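The members and gene lists were chosen with earlier results of these data known. The expected counts per gene were estimated and deposited by the authors; the aligner, the counter and the annotation behind them are not given in the sources used here. The submitters' processing notes name GRCm38 and DESeq2. The authors also deposited variance-stabilised log2 values, used only as an alternative. RNA was polyA-selected, per the labels' protocols, and read as 100 bp pairs to a target of 30 M pairs; whether counting used strand is not stated.

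Expected counts were rounded, filtered (edgeR filterByExpr, minimum count 10, minimum total 15) and scaled by trimmed mean of M values. An edgeR 4.0.16 robust quasi-likelihood model (R 4.3.3) with 6 group means over 23 libraries gave all tests, with Benjamini-Hochberg adjustment over 20189 genes and a threshold of 0.05. The procedure was tested on simulated data. A standard error is the log2 fold change over the square root of F. CPM were computed from scaled libraries. Log2 ratios used a prior count of 2. Exonic lengths came from GENCODE M21, neighbours from the gene positions deposited by the authors, and promoters from RefSeq.

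The rule for names took, from each list and comparison, every gene past the threshold where at most 4 passed, otherwise the 4 with the smallest p, and the 2 with the smallest p where none passed; not all so chosen are printed. Likeness took genes with a mean of at least 1 CPM. Alternatives used DESeq2 1.42.0, limma 3.58.1, other scaling, filters, sample sets and terms, and each library left out. Some neighbouring genes and list genes without a test are not reported.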

Additional observations from a re-analysis of the deposited data

Results flagged for a closer look

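In CAST/EiJ on 44% fat, replicate 1 stood apart from the other 3 libraries of its group in the log2 ratio of ligand to decoy per exonic base. It was at -1.61, while the others lay between -0.73 and -0.61. Its gap to the nearest library was 0.88 of the group's range, above the critical value of 0.829 for 4 libraries. The same library had the highest Tnfrsf11b of all 23, at 6.62 CPM, and white adipocyte markers of 516 CPM. The next highest Tnfrsf11b, 5.7 CPM, was in CAST/EiJ 10% fat replicate 2, with adipocyte markers of 1940 CPM and oviduct markers of 5190 CPM. The part of decoy level and markers in the ratio was not tested. Replicate 1 on 44% fat was the only flag among 20 sets of libraries examined, where chance flags about 1 in 20.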

How the results depend on the processing

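Each of the 3 genes was refitted under 31 alternatives in 9 comparisons, of diet in each strain, of strains averaged over diets and of diet effects between strains. The strain comparisons within 1 diet were not refitted. The calls of Tnfsf11 and Tnfrsf11b in NZO/HlLtJ against C57BL/6J and against CAST/EiJ, and of Tnfrsf11b in CAST/EiJ against C57BL/6J, were kept in all 31. The authors' variance-stabilised values compress low levels, and there Tnfsf11 in NZO/HlLtJ against C57BL/6J was 1.47 and Tnfrsf11b -0.41. The log2 fold change of Tnfsf11 in CAST/EiJ against C57BL/6J missed the threshold with the identifier series as a term (1.26), with limma and library quality weights (1.78) and on the variance-stabilised values (0.4), and leaving out single libraries it ran from 1.23 to 1.91. Uncalled values changed sign. With single libraries left out, the diet effect in C57BL/6J ran from -0.28 to 0.06 for Tnfrsf11a and from -0.24 to 0.52 for Tnfrsf11b. That in CAST/EiJ ran from -0.08 to 0.5 for Tnfsf11 and from -0.14 to 0.52 for Tnfrsf11b, and that in NZO/HlLtJ from -0.06 to 0.22 for Tnfrsf11a. NZO/HlLtJ against C57BL/6J ran from -0.16 to 0.01 for Tnfrsf11a, the term of CAST/EiJ minus C57BL/6J from -0.32 to 0.46 for Tnfrsf11b, and that of NZO/HlLtJ minus C57BL/6J from 0 to 0.37 for Tnfrsf11a. Without the 2 libraries richest in oviduct RNA (chosen after seeing the data), the diet effect was 0 for Tnfrsf11a in C57BL/6J and -0.08 for Tnfsf11 in CAST/EiJ. With the identifier series as a term, the CAST/EiJ minus C57BL/6J term of Tnfrsf11b was -0.08. The cause of these moves was not tested. Genes past the threshold for diet ranged over the alternatives from 0 to 590 in CAST/EiJ (126 as reported), from 0 to 832 in C57BL/6J and from 0 to 4 in NZO/HlLtJ, from 3500 to 7949 for NZO/HlLtJ against C57BL/6J (4828), and over the diet-by-strain terms from 8 to 1341 (124), 0 to 5 (0) and 0 to 211 (3). No paired analysis was possible because the labels carry no replicate numbers. Depth limits the lowest Tnfsf11 values, which rest on as few as 7 expected counts.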
